A study of Mus musculus with 12 samples.

Results

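Mouse embryonic stem (ES) cells that carry floxed, undeleted Smchd1 alleles (Smchd1 fl/fl) were sampled at day 1 and at day 5 of a protocol that turns ES cells into neuromesodermal progenitors (NMPs), and the change between these days is described here across genes. Of the 12 libraries of the series, 4 enter this comparison, 2 at each day. The other 8 libraries are Smchd1 fl/fl cells at day 8 and Smchd1 del/del cells at day 1, day 5 and day 8, with 2 libraries each. They serve to choose the genes tested, to rescale the libraries and to estimate the spread. With the del/del libraries it was also tested whether the change differs between genotypes. All cells are of strain C57BL/6 and labelled male. Each ES line was derived from a blastocyst at embryonic day 3.5 in a medium with 2 kinase inhibitors and the cytokine LIF (2i+LIF), and line 1 and line 3 are the replicates at both days. Every line was divided, and the fl/fl part was left untransduced, while the del/del part received the MSCV-Cre-puro retrovirus and puromycin selection. Both parts were then weaned in serum with LIF. LIF was removed and Fgf2 added, a Gsk3 inhibitor followed after 2 days and Gdf11 after a further 4 days. Counted from the start of differentiation, day 5 therefore lies after the Gsk3 inhibitor and before Gdf11. The earlier sampling is called day 1 in the sample titles and day 0 in the growth protocol, and is called day 1 below. The fl/fl cells have no Cre and are thus controls that were neither transduced nor selected.

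NMPs are cells of the caudal epiblast and tail bud that feed both the spinal cord and the paraxial mesoderm. They co-express the mesodermal T-box factor T (Brachyury) and the neural factor Sox2, and are maintained by Wnt and Fgf signals, which also activate the Cdx genes and, through them and directly, the Hox clusters. In culture, Fgf2 moves ES cells out of the naive state towards epiblast, and inhibition of Gsk3 stabilises β-catenin, which acts with TCF and LEF proteins on Wnt target genes.

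The genes that define ES cells and NMPs were read in all 4 libraries as follows. In what follows, reads are given for line 1 and then line 3. T (chr17:8434423-8442496, GRCm38) had 4 and 2 reads at day 1 and 651 and 743 at day 5. Cdx2 (chr5:147300805-147307270), the caudal homeobox factor, had 19 and 23 reads at day 1 and 507 and 744 at day 5. Nkx1-2, a homeobox gene of the caudal epiblast, had 13 and 12 reads and then 125 and 196. Sox2 (chr3:34650005-34652461) was still read at day 5, with 1668 and 1614 reads at day 1 and 375 and 613 at day 5. The ES cell genes were not gone at day 5. Pou5f1, which encodes Oct4, had 2133 and 2230 reads and then 769 and 1183. Nanog had 962 and 867 reads and then 199 and 159. Esrrb had 937 and 987 reads and then 277 and 580. Zfp42 (Rex1) had 398 and 424 reads and then 134 and 306. These are bulk libraries, so fewer cells of a type and less RNA per cell cannot be told apart.

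The 4 libraries held 6.42, 7.14, 4.36 and 7.60 M reads (M is mega) in the genes of the table (day 1 line 1, day 1 line 3, day 5 line 1, day 5 line 3), so that line 1 at day 5 is the shallowest. Across genes, the libraries of a day correlated at a Spearman coefficient of 0.993 at day 1 and 0.983 at day 5, over genes that are not independent replicates. At day 5 the lines differed in a group of extraembryonic endoderm genes: the summed rescaled level of that list was 94.8 and 102 RPM (reads per M reads) at day 1 and 432 and 795 at day 5, and the values with and without the day 5 library of line 3 are given where those genes are described. Smchd1 itself, which the fl/fl cells keep and which encodes an SMC-related protein of chromatin, had 1212 and 1495 reads at day 1 and 366 and 919 at day 5, a log2 change of -1.01 ± 0.24 (SE, 2 libraries a day, limma adjusted p = 0.00634). That call was lost without the day 5 library of line 1 (adjusted p = 0.0664), without the day 1 library of line 3 (0.052) and on the deposited scale (0.0631).

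Each library was rescaled so that the median gene is level, and 14063 genes were tested with limma, with p-values adjusted by the Benjamini-Hochberg method over all of them. A gene is called, and said to have risen or fallen, at an adjusted p under 0.05. From day 1 to day 5, 3234 genes rose (23.0% of those tested) and 2513 fell (17.9%), together 40.9%, and the median change of all genes was -0.04 on the log2 scale. Among the called genes, 585 rose and 278 fell by more than 8-fold. On the deposited scale, without rescaling, the median change was -0.42 and 1221 genes rose while 1436 fell, so that the share of rises among the calls was 46.0% in place of 56.3%. Without any filter on low values it was 49.5%. The counts of rises and of falls were both lower when any of the fl/fl libraries compared was left out, the falls by the larger proportion. These shares are the background against which the counts of each gene list are read. Under another fit, a list's count is to be read against all genes in that fit. Fewer of all genes were called on the deposited scale or with any of the compared libraries left out. A gene was tested if it lay above 1 RPM as deposited in 2 or more of the 12 libraries. It could thus enter through the day at which it was high. It could also enter through libraries outside the comparison alone, as Hoxc12 did with 0 reads in each compared library. Listed genes that did not enter are outside the counts.

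**Figure D1:**
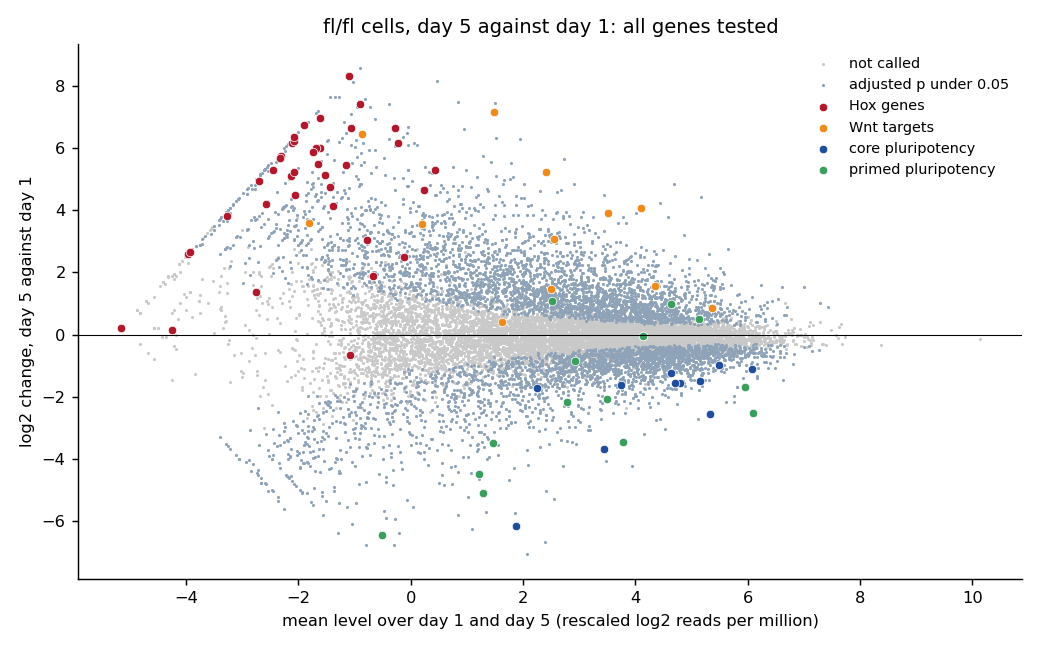
Fitted log2 change from day 1 to day 5 in fl/fl cells (vertical axis) against the mean level over both days (horizontal axis, rescaled log2 RPM). Each point is 1 of the 14063 tested genes, blue-grey where the adjusted p is under 0.05, and Hox genes, Wnt targets, core and primed pluripotency genes are coloured: the Hox genes and Wnt targets lie mostly above 0, the pluripotency genes mostly below.

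Promoter sequence was read for the members of the Wnt target and NMP lists, since a Gsk3 inhibitor was in the medium, and for the pluripotency lists. The 250 bases before each start (RefSeq, build GRCm38.p6, printed 5′ to 3′ in the direction of the gene) were searched on both strands for CTTTGAT, the core that TCF and LEF proteins bind, and for ATGCAAAT, the octamer that Oct4 binds. CTTTGAT occurs in 3.719% of the 27025 promoters of that table, in 1 of the 7 Wnt target promoters found in it and in 2 of the 11 NMP promoters. ATGCAAAT occurs in 1.813% of all promoters, in 2 of 11 naive pluripotency promoters (Spp1 and Zfp42) and in 0 of 8 core pluripotency promoters. The matches are descriptions of letters, not of bound sites, and a promoter without a match says nothing of the factor. The promoters printed here, with the match in capitals, are those of Sp5 (chr2:70474673-70474922, plus strand, match 104 bases before the start), which is on both lists, of Wnt5b (chr6:119449387-119449636, minus strand, 71 bases before) and of Spp1 (chr5:104435942-104436191, plus strand, 210 bases before).
Sp5: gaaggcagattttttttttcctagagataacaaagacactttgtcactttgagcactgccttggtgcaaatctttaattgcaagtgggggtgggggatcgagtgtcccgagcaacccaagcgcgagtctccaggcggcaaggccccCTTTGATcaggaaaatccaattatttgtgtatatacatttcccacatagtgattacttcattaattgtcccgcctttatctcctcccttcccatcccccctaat
Wnt5b: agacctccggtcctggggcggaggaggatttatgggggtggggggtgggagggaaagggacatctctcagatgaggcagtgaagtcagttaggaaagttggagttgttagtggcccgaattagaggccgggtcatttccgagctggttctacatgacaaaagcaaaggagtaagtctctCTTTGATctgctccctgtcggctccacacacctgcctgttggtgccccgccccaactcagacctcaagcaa
Spp1: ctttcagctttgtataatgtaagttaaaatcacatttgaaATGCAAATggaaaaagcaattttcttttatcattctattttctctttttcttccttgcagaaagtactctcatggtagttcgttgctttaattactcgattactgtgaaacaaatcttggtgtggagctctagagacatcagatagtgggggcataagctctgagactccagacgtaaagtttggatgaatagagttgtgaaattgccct

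Among all genes 23.0% rose and 17.9% fell. Of the 15 tested genes of the NMP and caudal epiblast list, 10 rose and 1 fell, with a median log2 change of 3.31. The transcription factors led it. T rose by 8.15 ± 0.43 on the log2 scale (SE, 2 libraries a day, adjusted p = 1.78e-06), from the 4 and 2 reads given above to 651 and 743. Cdx1, a caudal homeobox factor, went from 5 and 9 reads to 489 and 669 (6.62 ± 0.32). Cdx2 rose by 5.09 ± 0.28. Their X-linked relative Cdx4 went from 14 and 31 reads to 158 and 199 (3.30 ± 0.58). For all 3 Cdx genes both day 5 libraries lay above both day 1 libraries. Sp5 and Sp8 encode zinc finger factors of the Wnt pathway in the tail bud. Sp5, whose promoter is printed above, had 8 and 8 reads at day 1 and 898 and 1118 at day 5 (7.18 ± 0.49). Sp8 had 12 and 10 reads and then 86 and 102. Evx1, a homeobox gene that neighbours the Hoxa cluster, had 13 and 9 reads and then 318 and 434 (5.31 ± 0.40, adjusted p = 7.52e-06). Nkx1-2 rose by 3.86 ± 0.48 (adjusted p = 0.000146). Sox2, the neural factor that NMPs express together with T, is not counted in this list and changed by -1.57.

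Of the ligands on that list, Fgf8, which is made by the caudal epiblast, had 2 and 3 reads at day 1 and 55 and 69 at day 5 (4.86 ± 0.85). Wnt5b had 442 and 570 reads and then 878 and 1158 (1.22 ± 0.18), a call that the deposited scale did not keep (adjusted p = 0.146). Wnt8a, an early posterior Wnt ligand, was the member that fell, from 210 and 241 reads to 50 and 86 (-1.57 ± 0.43, adjusted p = 0.0141), and this call was lost without any 1 of the 4 libraries (adjusted p from 0.0581 to 0.0731). Wnt3a, the tail bud ligand, had 2 and 0 reads at day 1 and 9 and 14 at day 5, too few to be tested. The members not called were Cyp26a1, the enzyme that clears retinoic acid in the tail bud (34 and 28 reads, then 67 and 112), Fgf17 (22 and 37, then 44 and 54), Gbx2 and Fst. Of the exon length of Gbx2, 43.5% overlaps another gene, which makes its reads uncertain.

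**Figure D2:**
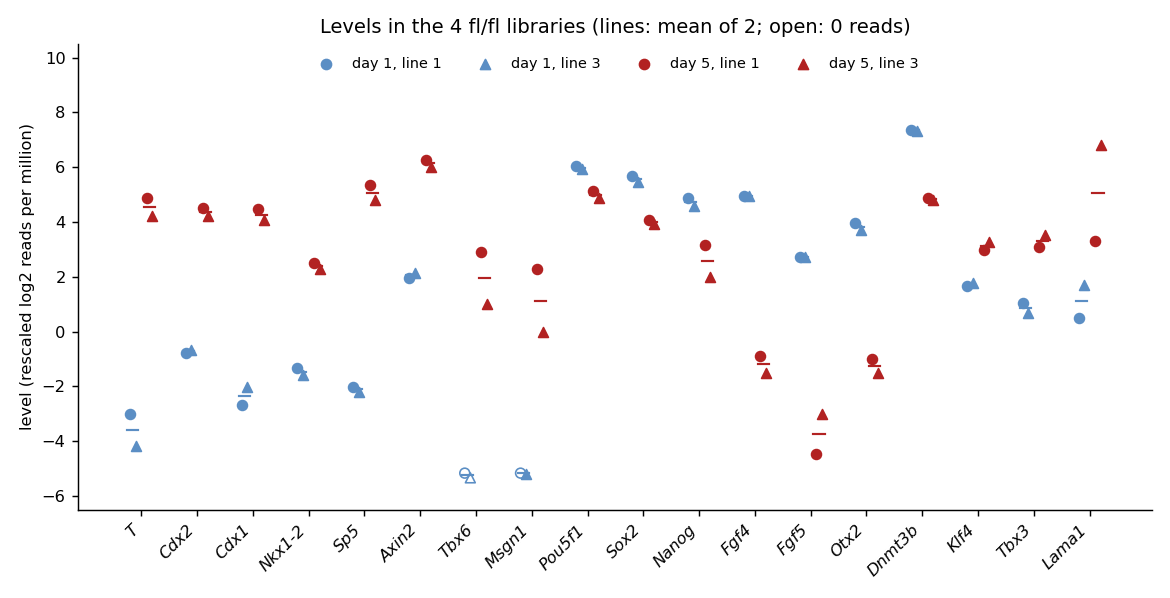
Levels of 18 genes (horizontal axis) in the 4 fl/fl libraries, as rescaled log2 RPM (vertical axis). Circles are line 1 and triangles line 3, blue for day 1 and red for day 5, short lines are the means of 2 libraries and open symbols have 0 reads; levels compare libraries within a gene, not genes, and Lama1 is the gene whose day 5 libraries lie farthest apart.

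The Wnt target list, genes that β-catenin with TCF or LEF activates in many tissues, showed the same direction in nearly all its members. Of 13 tested, 11 rose and 0 fell, against 23.0% rises and 17.9% falls among all genes, and the median log2 change was 3.56. Several of its members are known as feedback inhibitors of the pathway. Axin2 (chr11:108920349-108950783), a scaffold of the complex that destroys β-catenin, had 127 and 162 reads at day 1 and 1696 and 2585 at day 5, a log2 change of 4.08 ± 0.15 (adjusted p = 2.88e-07). Nkd1, an antagonist that binds Dishevelled, had 34 and 26 reads and then 856 and 1090 (5.23 ± 0.43). Notum, an enzyme that inactivates Wnt proteins, had 114 and 90 reads and then 1126 and 1565 (3.92 ± 0.22), with 38.1% of its exon length shared with an antisense gene. Dkk1, a secreted inhibitor, had 2 and 2 reads and then 95 and 246 (6.47 ± 0.52). Its relative Dkk4, one of the 12 largest increases of all genes, had 0 and 0 reads and then 116 and 205, at least 119-fold higher against a floor of 3 reads over the day 1 libraries. For each of these genes both day 5 libraries lay far above both day 1 libraries.

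The membrane ubiquitin ligases that remove Wnt receptors rose too. Rnf43 had 12 and 11 reads and then 78 and 177 (3.56 ± 0.85). Znrf3 had 114 and 119 reads and then 185 and 427 (1.48 ± 0.22), a call lost on the deposited scale (adjusted p = 0.127). Lgr5, a receptor for R-spondins and a partner of these ligases, had 4 and 2 reads and then 19 and 46 (3.59 ± 0.79). Apcdd1, a membrane inhibitor, had 116 and 42 reads and then 463 and 556 (3.07 ± 0.41). Among the nuclear partners of β-catenin, Tcf7 had 399 and 416 reads and then 875 and 1253 (1.57 ± 0.16). Lef1, with 542 and 704 reads and then 462 and 582, was not called, and its day 1 and day 5 levels overlapped. Bambi, a pseudoreceptor of the BMP pathway, was the other member not called (0.42 ± 0.29). Ccnd1, the cyclin D1 gene, rose by 0.85 ± 0.13 (968 and 1144 reads, then 1319 and 2046) and was not called on the deposited scale (adjusted p = 0.314).

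Most of the Wnt ligand genes read in these cells rose. Of 19 listed, 13 were tested, of which 11 rose and 1, Wnt8a, fell, with a median of 2.21. On the deposited scale 7 rose. Wnt6 (chr1:74771892-74785319) had 16 and 14 reads at day 1 and 838 and 1239 at day 5 (6.30 ± 0.27, adjusted p = 6.72e-07). Wnt7a had 3 and 0 reads and then 158 and 330, and as so few reads were seen at day 1 the ratio of RPM, 181, has a 95% exact counting interval from 61.4 to 878. Wnt7b had 24 and 38 reads and then 352 and 860 (4.40 ± 0.49). Wnt9a had 26 and 13 reads and then 160 and 283 (3.74 ± 0.44). Wnt10a had 5 and 2 reads and then 38 and 47 (3.95 ± 0.68). In these 5 ligands no day 5 library overlapped a day 1 library. Wnt1 had 0 reads in all 4 libraries.

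Hox genes are laid out in 4 clusters in which genes at the 3′ end are activated earlier and pattern more anterior levels than genes at the 5′ end. Nearly the whole tested set rose between the days: of 38 tested Hox genes 33 rose and 0 fell. Hoxa4, with 0 and 0 reads at day 1 and 9 and 19 at day 5, was not tested. By position, 14 of 14 genes of paralog groups 1 to 5 rose (median 5.45, or 5.39 with genes without day 1 reads set at their bound), 11 of 12 of groups 6 to 9 (median 5.84), and 8 of 12 of groups 10 to 13 (median 2.85, or 3.05 at the bound). By cluster, 9 of 10 Hoxa, 9 of 10 Hoxb, 8 of 9 Hoxc and 7 of 9 Hoxd genes rose. Reads summed over the tested genes of a cluster went from 23 and 26 at day 1 to 583 and 792 at day 5 for Hoxa, from 33 and 24 to 1022 and 1406 for Hoxb (chr11:96194316-96368256), from 22 and 14 to 331 and 517 for Hoxc (chr15:102921103-103036843), and from 35 and 42 to 571 and 674 for Hoxd (chr2:74668310-74765143). In all clusters the day 1 sums were a small part of the day 5 sums in both lines.

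Of the 3′ genes, Hoxb1 had 2 and 3 reads at day 1 and 38 and 84 at day 5 (4.74 ± 0.73). Hoxd1 had 2 and 5 reads and then 38 and 60 (4.13 ± 0.86). In these genes of paralog group 1, which pattern the hindbrain, both day 5 libraries lay above both day 1 libraries. Hoxb2 had 0 and 0 reads and then 70 and 98, at least 62.1-fold higher. Hoxc4 had 0 and 0 reads and then 47 and 87, at least 49.6-fold. Hoxa3 had 2 and 4 reads and then 222 and 276 (6.66 ± 0.73). The middle genes mark trunk levels, and their median lay close to that of the 3′ genes, below it with a stricter filter on low values (6.01 against 6.28) and without the day 1 library of line 3 (5.37 against 5.59). Hoxb6 (chr11:96292476-96301569) had 0 and 0 reads at day 1 and 253 and 247 at day 5, at least 185-fold higher. Hoxb8 had 3 and 4 reads and then 178 and 260 (6.17 ± 0.49, adjusted p = 9.18e-06). Both are neighbours of Hoxb7 in the cluster and rose in both lines. Hoxb7 had 8 and 7 reads and then 207 and 306 (5.28 ± 0.44). Hoxb9 had 11 and 6 reads and then 142 and 221 (4.66 ± 0.52). Hoxc6 had 6 and 0 reads and then 71 and 112 (5.47 ± 0.84). The same was seen outside the Hoxb cluster. Hoxd9 had 2 and 1 reads and then 231 and 187, a ratio of 155 with a counting interval of 52.5 to 753. Hoxa6, with 0 and 0 reads and then 2 and 11, was the middle gene not called (adjusted p = 0.0632).

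Fewer of the 5′ genes were called. Hoxa10 had 3 and 1 reads and then 30 and 38 (4.49 ± 0.75). Hoxc10 had 2 and 0 reads and then 56 and 82, a ratio of 76.6 (20.8 to 639). Hoxd10 had 2 and 0 reads and then 47 and 40. Hoxa13, the most 5′ gene of its cluster, had 1 and 0 reads and then 11 and 12, a ratio of 25.5 (4.14 to 1051), so both day 5 libraries held more reads but few. Hoxd11 had 7 and 7 reads and then 61 and 41 (3.05 ± 0.75, adjusted p = 0.00799), a call lost without the day 5 library of line 1 (0.078) and by voom (0.0893), a fit that weights each value by its precision. In each of these genes the days did not overlap. Hoxc13 had 9 and 14 reads and then 24 and 54 (1.89 ± 0.41, adjusted p = 0.0039 and 0.106 on the deposited scale). The 5′ genes that were not called had at most 23 reads in any of the 4 libraries. Hoxb13 had 5 and 2 reads and then 10 and 5. Hoxd12 had 1 and 3 reads and then 0 and 3. Hoxd13 had 18 and 23 reads and then 6 and 21. Hoxc12 had 0 reads in all 4 libraries. Gdf11, the ligand used later in this protocol, had not been added at this time, and whether this bears on the 5′ genes was not tested. Of the exon length of Hoxa11, Hoxb3, Hoxd3 and Hoxd4, 35.0%, 52.9%, 62.8% and 52.3% overlap other genes of the clusters, so their reads are uncertain, and voom did not call Hoxb3 (adjusted p = 0.061) and Hoxd3 (0.0783). In the 250 bases before the start, CTTTGAT was found in 1 of 22 Hox promoters (4.545%), that of Hoxd8, which holds it at 153 and 143 bases before the start, and ATGCAAAT in 0 of 22. This search was added after the Hox values had been seen. The Hoxd8 promoter (chr2:74704365-74704614, plus strand), whose gene had 2 and 1 reads and then 63 and 96, is shown with both matches in capitals.
Hoxd8: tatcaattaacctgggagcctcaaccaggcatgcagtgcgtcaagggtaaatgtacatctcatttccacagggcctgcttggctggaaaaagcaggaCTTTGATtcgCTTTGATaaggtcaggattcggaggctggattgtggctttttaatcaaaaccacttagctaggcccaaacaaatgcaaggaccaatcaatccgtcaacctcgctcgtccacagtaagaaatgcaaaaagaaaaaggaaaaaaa

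**Figure D3:**
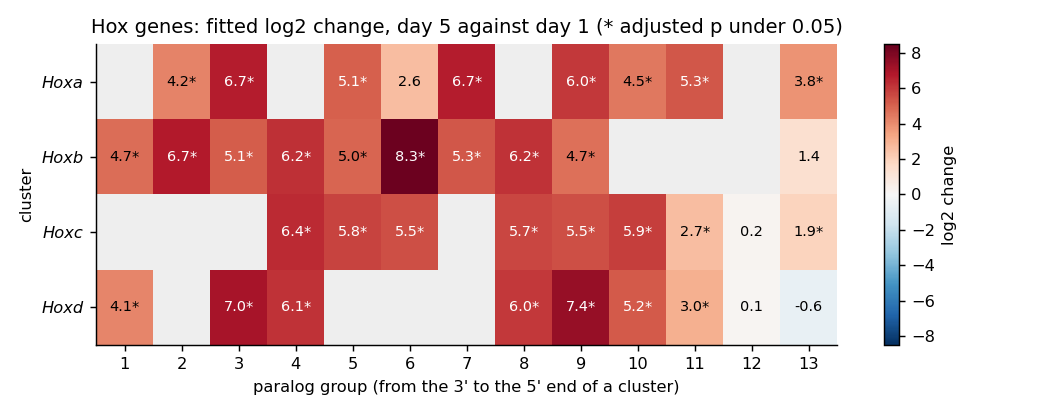
Fitted log2 change from day 1 to day 5 for tested Hox genes, arranged by cluster (vertical axis) and paralog group (horizontal axis, from the 3′ to the 5′ end). Red is higher at day 5, blue lower, an asterisk marks an adjusted p under 0.05, and pale grey cells have no value shown; changes of genes without day 1 reads depend on the value entered for 0 reads.

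Pluripotency genes fell, but not as a block. All 11 core pluripotency genes fell (median -1.57), against 17.9% of all genes. Pou5f1 (chr17:35506037-35510776) fell by 0.98 ± 0.17 on the log2 scale (adjusted p = 0.000983) and Sox2 by 1.57 ± 0.22 (adjusted p = 0.000297), with the reads given above. Sall4, a zinc finger partner of Oct4, had 1985 and 2114 reads and then 457 and 862 (-1.50 ± 0.13). Utf1, a chromatin factor of ES cells, had 1486 and 1605 reads and then 352 and 585 (-1.56 ± 0.23). L1td1, which encodes an RNA-binding protein, had 3190 and 3477 reads and then 360 and 678 (-2.54 ± 0.22). Tdgf1 (Cripto), the Nodal co-receptor, had 1292 and 1383 reads and then 85 and 97 (-3.67 ± 0.45). Fgf4 (chr7:144861386-144865243), the Fgf ligand that ES cells make themselves, showed the largest fall of the list, from 995 and 1134 reads to 12 and 14 (-6.15 ± 0.40, adjusted p = 4.28e-06). For each gene named here both day 5 libraries lay below both day 1 libraries.

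The naive pluripotency list was divided: of 19 tested genes 10 fell, 3 rose and 6 were not called, with a median of -1.05. Without the day 1 library of line 1 the falls were 6, and on the deposited scale 1 gene rose. Nanog fell by 2.15 ± 0.39 (adjusted p = 0.00134). Dppa3 (Stella), a germ cell and early embryo gene, went from 533 and 531 reads to 77 and 112 (-2.31 ± 0.41). Fbxo15, an Oct4 target, went from 1792 and 1919 reads to 193 and 293 (-2.75 ± 0.38). Gdf3, a TGF-β family ligand, went from 652 and 708 to 64 and 87 (-2.98 ± 0.46). Spp1 (osteopontin), whose promoter is shown above, went from 1442 and 1446 to 363 and 451 (-1.63 ± 0.20). Tcl1, a cofactor of the kinase Akt, had 52 and 49 reads and then 0 and 0, at least 30.3-fold lower. The Krüppel-like factors, which share targets in naive cells, did not move together. Klf2 went from 755 and 758 reads to 187 and 334 (-1.39 ± 0.34, adjusted p = 0.00762, and 0.0574 without the day 1 library of line 1). Klf4 had 103 and 124 reads and then 173 and 388 (1.41 ± 0.36, adjusted p = 0.00942). Klf5 had 177 and 256 reads and then 319 and 703 (1.36 ± 0.24, adjusted p = 0.00123). Tbx3, a T-box factor, had 66 and 58 reads and then 189 and 459 (2.46 ± 0.32, adjusted p = 0.000201). In all 3 risers both day 5 libraries lay above both day 1 libraries. On the deposited scale Tbx3 kept its call and Klf4 and Klf5 did not (adjusted p = 0.212 and 0.14), and Klf4 also lost it without the day 5 library of line 3 (0.0726), without the day 1 library of line 1 (0.058) and with no filter (0.0502). Esrrb fell by 1.05 ± 0.37 (adjusted p = 0.0396), a call lost without any 1 of the 4 libraries (adjusted p from 0.0996 to 0.165) and on the deposited scale (0.0713). Zfp42 (-0.81 ± 0.53), Nr0b1 (-0.61 ± 0.34), and Nr5a2 (-0.47 ± 0.47) were not called, although a fit on the 4 fl/fl libraries alone called Zfp42 and Nr0b1 (adjusted p = 0.00234 and 0.00706), as did voom for Nr0b1 (0.0454). Tfcp2l1 was not called either, with 390 and 381 reads and then 225 and 547, and its days overlapped.

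Genes of the primed state, the epiblast-like state that follows the naive one, were high at day 1 and fell by day 5: of 14 tested genes 10 fell and 2 rose, with a median of -2.13. Fgf5 (chr5:98254184-98277030), a Fgf ligand of the epiblast, had 214 and 242 reads at day 1 and 1 and 5 at day 5 (-6.46 ± 1.21, adjusted p = 0.00172). Otx2 (chr14:48657679-48667644), a homeobox factor of epiblast and anterior brain, had 505 and 471 reads and then 11 and 14 (-5.09 ± 0.69). Pou3f1 (Oct6) had 1477 and 1687 reads and then 96 and 159 (-3.47 ± 0.36). Foxd3 had 347 and 411 reads and then 15 and 14 (-4.49 ± 1.03). The zinc finger genes Zic2 and Zic5 fell by 2.18 ± 0.25 and 3.47 ± 0.48. The members that rose were Sfrp2, a Wnt antagonist (147 and 123 reads, then 170 and 361), and Sox4 (537 and 683, then 870 and 1251, with 54.6% of its exon length shared with another gene), and neither was called on the deposited scale (adjusted p = 0.263 and 0.226). Without the day 1 or the day 5 library of line 3, Sfrp2 was not called (0.0799 and 0.0645) and 1 member rose.

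A small group of genes that mark the rare 2-cell-like state of ES cultures fell from low levels. Of 8 tested genes 7 fell, with a median of -4.08 (-2.62 with 3 reads added before the logarithm), and without the day 1 library of line 1 the falls were 4. Zscan4d had 137 and 114 reads at day 1 and 4 and 7 at day 5 (-4.35 ± 0.77). Tcstv1 had 47 and 22 reads and then 2 and 3 (-3.51 ± 0.67). Tmem92 had 58 and 35 reads and then 5 and 4 (-3.12 ± 0.70), a call lost without the day 1 library of line 1 (adjusted p = 0.0568). The Zscan4 genes are near-identical copies, so reads may have been split among them. Of 12 germline genes 5 fell and 0 rose (median -1.01), with 2 falls without the day 1 library of line 1 and 3 without any 1 of the other 3 libraries. Hormad1, a meiotic chromosome axis gene, had 497 and 397 reads and then 62 and 67 (-2.58 ± 0.36). Stk31, a germ cell kinase, had 402 and 329 reads and then 67 and 189 (-1.48 ± 0.27).

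Signalling pathways besides Wnt were followed through their ligands, inhibitors and targets. In the Nodal pathway, 7 of 13 tested genes fell and 2 rose, against 17.9% falls and 23.0% rises among all genes. The median was -1.23, or -2.35 among the genes left by the stricter filter, which asks for a deposited log2 value over 2. The ligand gene Nodal had 731 and 730 reads at day 1 and 69 and 94 at day 5 (-2.97 ± 0.32, adjusted p = 6.35e-05). Its feedback inhibitor Lefty1 had 360 and 414 reads and then 18 and 29 (-3.87 ± 0.36). Foxh1, the nuclear partner of Smads in Nodal signalling, had 602 and 676 reads and then 69 and 165 (-2.37 ± 0.29). Skil, a Smad corepressor, had 1284 and 1389 reads and then 320 and 754 (-1.23 ± 0.17). The ligand Gdf11 moved the other way, from 33 and 47 reads to 202 and 260 (2.75 ± 0.30, adjusted p = 6.13e-05). In all 5 genes the days did not overlap.

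In the BMP pathway 5 of 11 tested genes rose and 1 fell, against 23.0% rises and 17.9% falls among all genes. The median was 1.54. The ligands rose: Bmp2 had 2 and 1 reads at day 1 and 165 and 334 at day 5, a ratio of 185 with a counting interval of 62.8 to 898. Bmp7 had 27 and 70 reads and then 467 and 769 (3.99 ± 0.32). Bmp4 had 73 and 69 reads and then 207 and 287 (1.99 ± 0.31). The homeobox target Msx2 rose from 21 and 14 reads to 89 and 198 (3.16 ± 0.32). Of the 4 tested Id genes, the immediate targets of BMP signals, none rose. Id3 fell by 0.63 ± 0.18 (597 and 644 reads, then 289 and 416, adjusted p = 0.0155), a call lost without the day 5 library of line 3 (0.12), without the day 1 library of line 1 (0.0888) or of line 3 (0.0632), and on the deposited scale (0.0913). Id1, Id2 and Id4 were not called.

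The FGF and ERK target list moved both ways, with 7 rises and 6 falls among 16 tested genes, against 23.0% rises and 17.9% falls among all genes. Its median was 0.45. On the deposited scale it had 2 rises and 3 falls, where 1221 of all 14063 genes rose and 1436 fell. There were 4 rises with no filter, and fewer rises than in the main fit without the day 1 library of line 1. The median was 0.30 with no filter or without the day 1 library of line 1, 0.27 without the day 5 library of line 3 and 0.07 on the deposited scale. Etv5, an ETS factor downstream of Fgf, had 1531 and 1685 reads and then 461 and 747 (-1.24 ± 0.14). Myc had 431 and 567 reads and then 152 and 281 (-1.05 ± 0.19). Spry4 and Spred1, feedback inhibitors of the same cascade, fell by 0.80 ± 0.16 and 0.91 ± 0.18 and were not called on the deposited scale (adjusted p = 0.0694 and 0.0501). Il17rd (Sef), also a feedback inhibitor, rose from 290 and 445 reads to 903 and 1417 (1.86 ± 0.24). Fosl1, an AP-1 subunit with 57.2% of its exon length shared with another gene, rose from 20 and 33 reads to 230 and 455 (3.86 ± 0.67). Of 9 genes of the LIF and Stat3 response, 4 rose and 3 fell, and 2 rose with no filter. On the deposited scale 1 rose and 1 fell, to be read against the same counts of all genes. Fewer falls of this list were called without the day 1 library of line 3. Junb, an AP-1 subunit, had 141 and 146 reads and then 370 and 651 (1.98 ± 0.22). Pim3, a kinase gene that Stat3 activates, had 778 and 904 reads and then 209 and 436 (-1.26 ± 0.19).

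The daughters of NMPs were examined next. Of 15 tested genes of presomitic and paraxial mesoderm, 8 rose and 1 fell, against 23.0% rises and 17.9% falls among all genes. The median was 1.34, or 2.59 among the genes left by the stricter filter. Tbx6 (chr7:126781483-126785560), the T-box factor that directs cells to paraxial mesoderm, had 0 and 0 reads at day 1 and 164 and 80 at day 5, at least 90.3-fold higher. Msgn1, a presomitic bHLH factor, had 0 and 1 reads and then 107 and 39, a ratio of 162 with a counting interval of 28.6 to 6442. Pax3, of dorsal neural tube and somites, had 0 and 0 reads and then 52 and 96, at least 54.7-fold higher. Cited1, a transcriptional cofactor, had 48 and 76 reads and then 562 and 945 (3.80 ± 0.42). Foxc1 had 0 and 2 reads and then 52 and 36, a ratio of 48.8 (13.1 to 409). Tcf15 (Paraxis), a somite gene that is also on in epiblast-primed ES cells, was the member that fell, from 392 and 507 reads to 58 and 72 (-2.58 ± 0.37). Tbx6 and Msgn1 had more reads in line 1 than in line 3 at day 5, although line 1 is the shallower library. The median of the list was 1.90 in line 1 and 1.17 in line 3, a difference that was not tested.

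Neural genes were divided: of 10 tested neural progenitor genes 4 rose and 4 fell (median 0.54), against 23.0% rises and 17.9% falls among all genes. That median was 0.09 without the day 5 library of line 1, 0.31 without the day 1 and 0.35 without the day 5 library of line 3, and 0.17 on the deposited scale. Nkx6-1, a ventral spinal cord factor, had 0 and 1 reads at day 1 and 133 and 207 at day 5, a ratio of 377 with a counting interval of 67.3 to 14945. Irx3, a spinal cord factor, had 62 and 58 reads and then 204 and 336 (2.34 ± 0.21). Zic1 had 10 and 7 reads and then 44 and 63 (2.86 ± 0.45). Other progenitor factors fell. Sox1, the early neural plate gene, went from 29 and 52 reads to 1 and 3 (-4.28 ± 0.88). Olig2, of motor neuron progenitors, went from 261 and 312 to 17 and 46 (-3.14 ± 0.58). Pax6 went from 118 and 119 to 33 and 52 (-1.31 ± 0.30), a call lost without the day 1 library of line 1 (adjusted p = 0.0525). Of 7 neuron genes 4 fell and 2 rose. Tubb3, neuronal β-tubulin, had 832 and 861 reads and then 156 and 253 (-1.88 ± 0.30). Stmn2 had 863 and 974 reads and then 168 and 295 (-1.83 ± 0.15). The neurofilament gene Nefm rose from 613 and 723 to 3216 and 4630 (2.74 ± 0.42), and its neighbour Nefl, with 32.8% of its exon length shared, rose by 2.59 ± 0.42. The days did not overlap for any gene of this paragraph.

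Of 13 lateral and intermediate mesoderm genes 8 were tested, of which 6 rose and 0 fell, with a median of 2.09. On the deposited scale 4 of them rose. The median was 2.22 without the day 1 library of line 1 and 2.21 without the day 5 library of line 3. Fewer rises of this list were called in both of these fits. Msx2 and Bmp4, given above, were the members with the smallest p. Prrx1, a limb and lateral mesoderm gene, had 6 and 1 reads and then 17 and 34 (adjusted p = 0.003). Of 13 anterior streak and node genes 7 were tested, of which 3 rose and 1, Nodal, fell. Mixl1, a streak homeobox gene, had 6 and 4 reads and then 130 and 151 (5.05 ± 0.80). Foxa2, of node and endoderm, had 0 and 2 reads and then 26 and 167, a ratio of 107 (29.2 to 891). Wnt3 had 17 and 33 reads and then 55 and 103 (1.88 ± 0.39, adjusted p = 0.00302 and 0.0908 on the deposited scale). Of 15 endothelial and blood genes 8 were tested, of which 4 rose and 3 fell. The endothelial cadherin gene Cdh5 had 1 and 9 reads and then 109 and 373 (6.28 ± 0.97). Runx1, a blood factor, had 6 and 5 reads and then 98 and 250 (5.05 ± 0.33). Tie1, an endothelial receptor, fell from 55 and 43 reads to 1 and 4 (-4.39 ± 0.88). Etv2, the factor that starts the lineage, fell from 30 and 18 to 0 and 2, a ratio of 21.6 (5.67 to 184). The embryonic globin genes Hba-x, Hbb-y and Hbb-bh1 had 7, 12 and 8 reads in the day 5 library of line 1 and 0 in the other 3 libraries.

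Extraembryonic endoderm genes, which mark the yolk sac lineage that ES cells can form beside the epiblast lineages, rose in 10 of 15 tested cases and fell in 0, with a median of 3.60, and the rise was larger in line 3. The median change was 2.31 in line 1 and 4.74 in line 3. Without the day 5 library of line 3 the list had 8 rises (median 2.24, against 16.1% rises among all genes in that fit), and without that of line 1 it had 12 (against 18.1%). The voom fit called 6. Pdgfra, a receptor of primitive endoderm and mesoderm, had 14 and 7 reads at day 1 and 50 and 726 at day 5 (4.48 ± 0.84), a call not made by voom (adjusted p = 0.0611). Gata6, a factor that specifies the lineage, had 5 and 6 reads and then 30 and 178 (3.95 ± 0.54, adjusted p = 0.000259). Col4a1 and Col4a2 encode chains of basement membrane collagen. Col4a1 had 197 and 357 reads and then 2773 and 8898 (4.44 ± 0.34). Col4a2 had 136 and 203 reads and then 2332 and 7174 (4.83 ± 0.29). Day 5 lay above day 1 in both lines in these 4 genes.

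Other members of that list, chosen here after their values were seen, had far more reads at day 5 in line 3 than in line 1. Of these, Lama1 had more reads at day 5 than at day 1 in line 1 too, with a log2 change of 2.20 without the day 5 library of line 3. Lama1, a laminin chain, had 46 and 118 reads at day 1 and 218 and 4449 at day 5, and its call (3.95 ± 1.05, adjusted p = 0.0122) was lost without that library (0.123), without the day 1 library of line 1 (0.0921) and by voom (0.0739). Dab2, an endocytic adaptor of visceral endoderm, had 13 and 26 reads and then 11 and 418. Sox7 had 7 and 4 reads and then 4 and 117. Cubn, an endocytic receptor, had 5 and 31 reads and then 8 and 338. The days overlapped in Dab2, Sox7 and Cubn, and none was called. Afp, Apoa1, Apob and Ttr, which mark mature visceral endoderm, had at most 5 reads in any of the 4 libraries and were not tested. Whether the line 3 library holds more cells of this lineage was not tested. Of the 12 largest increases, Ctsh and S100g also had more reads in line 3 than in line 1 at day 5. Both had more reads at day 5 than at day 1 in each line. Ctsh, a lysosomal protease, had 1 and 1 reads and then 43 and 708. S100g, a calcium-binding protein, had 2 and 1 reads and then 80 and 470. Neither was called by voom (adjusted p = 0.0725 and 0.16). Definitive endoderm genes rose in 4 of 6 tested cases and fell in 1, Trh, which encodes thyrotropin-releasing hormone (491 and 632 reads, then 197 and 255, adjusted p = 0.0358) and was not called when any 1 of the 4 libraries was left out. Cxcr4, a chemokine receptor of that lineage, had 10 and 12 reads and then 128 and 117 (3.69 ± 0.56), with no excess in line 3. Foxa2, given above, showed the largest rise of this list (5.83) and did have more reads in line 3 at day 5. Its log2 change was 6.75 when line 3 alone stood for day 5, and 4.91 when line 1 did. The median change of the definitive endoderm list was 2.58 in line 1 and 1.91 in line 3, a difference that was not tested.

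Trophoblast genes rose in 8 of 13 tested cases and fell in 0 (median 1.75), with 2 falls by voom. Their summed level was 91.8 and 93.6 rescaled RPM at day 1 and 319 and 239 at day 5, so that line 1 was the higher line here. Krt7 and Krt18 encode keratins of simple epithelia. Krt7 had 188 and 265 reads and then 940 and 1481 (2.61 ± 0.47). Krt18 had 724 and 907 reads and then 2600 and 3121 (2.02 ± 0.40). Tpbpa, a gene of the spongiotrophoblast, had 0 and 0 reads and then 89 and 84, at least 64.0-fold higher. The X-linked homeobox genes Rhox6 and Rhox9 rose by 1.76 ± 0.37 and 2.14 ± 0.47. The trophoblast regulator Elf5, with 0 and 0 reads at day 1 and 4 and 8 at day 5, was not tested.

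**Figure D4:**
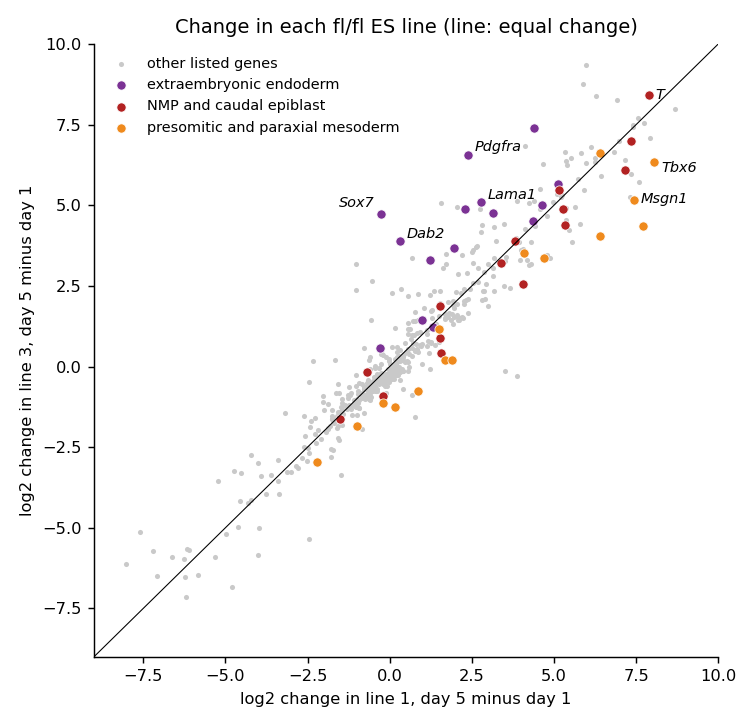
Log2 change from day 1 to day 5 in line 3 (vertical axis) against line 1 (horizontal axis) for the genes of the lists, with the diagonal of equal change. Extraembryonic endoderm genes such as Sox7, Dab2, Lama1 and Pdgfra lie above the diagonal, and presomitic genes such as Tbx6 and Msgn1 below it; each change rests on 2 libraries and has no error of its own.

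Genes of epithelial-to-mesenchymal transition rose in 6 of 10 tested cases with 0 falls (median 1.45). Cdh2, the gene of N-cadherin, had 100 and 98 reads at day 1 and 611 and 752 at day 5 (2.98 ± 0.21, adjusted p = 5.79e-06). Vim, the vimentin gene, had 840 and 773 reads and then 1988 and 2688 (1.73 ± 0.25). Fn1, the fibronectin gene, had 2592 and 2594 reads and then 5003 and 8367 (1.53 ± 0.25). Epithelial genes moved both ways: of 11 tested, 6 rose and 3 fell (median 0.80), although the deposited scale left 2 rises and 1 fall (median 0.42) and the fit without the day 1 library of line 1 left 3 and 1. Without the day 1 or the day 5 library of line 3 there was 1 fall. Cldn3, a claudin of tight junctions, had 52 and 64 reads and then 405 and 675 (3.39 ± 0.42). Cldn4 had 722 and 881 reads and then 2066 and 2815 (1.81 ± 0.40). Esrp1, an epithelial splicing regulator, fell from 1092 and 1245 to 219 and 532 (-1.56 ± 0.35). Of 14 fibroblast and matrix genes 8 rose and 0 fell (median 1.64, or 1.76 at the bound, and 1.06 without the day 1 library of line 3). Acta2, smooth muscle actin, had 4 and 7 reads and then 136 and 237 (5.29 ± 0.49). Fbln2 had 13 and 19 reads and then 104 and 219 (3.47 ± 0.38). Pdgfrb had 8 and 4 reads and then 31 and 51 (3.02 ± 0.48).

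Cell cycle genes fell nearly throughout, and cyclin D and CDK inhibitor genes rose. Of 18 tested cell cycle genes 17 fell and 0 rose, with a median of -1.08, against 17.9% falls among all genes. On the deposited scale 11 fell, where 1436 of all 14063 genes fell. The median was -1.04 without the day 1 library of line 1 and -0.93 without the day 5 library of line 3. Fewer falls of this list were called in both of these fits. Ccne1, cyclin E1, had 1370 and 1544 reads and then 493 and 695 (-1.10 ± 0.14, adjusted p = 0.000149). Mcm2 and Mcm5, subunits of the replicative helicase, fell by 0.72 ± 0.12 and 0.87 ± 0.16. Top2a, the topoisomerase of dividing cells, had 5530 and 5761 reads and then 1336 and 2352 (-1.46 ± 0.26). Of 9 cyclin D and CDK inhibitor genes 6 rose and 0 fell (median 1.65). Ccnd2 had 91 and 99 reads and then 451 and 819 (2.89 ± 0.28). Cdkn2a and Cdkn2b are neighbouring genes of inhibitors of Cdk4 and Cdk6. Cdkn2a had 134 and 151 reads and then 481 and 699 (2.24 ± 0.24). Cdkn2b had 78 and 85 reads and then 307 and 559 (2.56 ± 0.25). Cdkn1a, which encodes p21, had 742 and 763 reads and then 1671 and 2510 (1.65 ± 0.25). The days did not overlap in any of these genes.

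Enzymes of DNA methylation were also lower at day 5, with 6 falls and 1 rise among 8 tested genes (median -1.37). Dnmt3b (chr2:153649450-153687730), a de novo methyltransferase, had 5344 and 5876 reads and then 653 and 1114 (-2.51 ± 0.21, adjusted p = 1.2e-05). The other de novo enzyme, Dnmt3a, had 3701 and 4013 reads and then 750 and 1413 (-1.70 ± 0.11). Their cofactor Dnmt3l had 3391 and 3510 reads and then 697 and 1262 (-1.67 ± 0.23). Of the Tet enzymes, which oxidise 5-methylcytosine, Tet1 had 1729 and 1978 reads and then 137 and 225 (-3.19 ± 0.18). Tet3 had 169 and 226 reads and then 375 and 707 (1.61 ± 0.20), a call the deposited scale did not keep (adjusted p = 0.0725). Polycomb genes fell in 5 of 16 tested cases and rose in 1, against 17.9% falls and 23.0% rises among all genes. There were 8 falls and 2 rises by voom and 3 falls on the deposited scale. The median was -0.34, with -0.32 without the day 1 and -0.34 without the day 5 library of line 3. The largest falls were Phc1, with 3460 and 3742 and then 494 and 957 reads (-2.18 ± 0.16), and Jarid2, with 3370 and 3611 and then 676 and 1284 (-1.70 ± 0.14).

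Of 11 genes of the SMC complexes, to which Smchd1 is related, 3 fell and 0 rose, against 17.9% falls among all genes, and voom called 6. The median was -0.55, and -0.92 on the deposited scale. Besides Smchd1 these were Smc2 (2350 and 2607 reads, then 754 and 1282, -1.12 ± 0.23) and Smc3 (2527 and 2866, then 1130 and 1881, -0.68 ± 0.11), of condensin and cohesin. Imprinted genes, some of which depend on Smchd1, rose in 9 of 20 tested cases and fell in 3 (median 0.67), where 23.0% of all genes rose and 17.9% fell. On the deposited scale there were 5 rises and a median of 0.30, where 1221 of all 14063 genes rose. Plagl1 had 11 and 22 reads and then 137 and 240 (3.75 ± 0.34). Sgce had 147 and 172 reads and then 322 and 584 (1.66 ± 0.14). Airn, the noncoding RNA antisense to Igf2r, had 50 and 45 reads and then 175 and 367 (2.63 ± 0.22), and whether the counting used strand is not given, so that Igf2r reads may be among them. Igf2 rose by 2.44 ± 0.26, with 64.5% of its exon length shared, and Snrpn fell by 1.76 ± 0.17, with 34.1% shared. Of 9 genes of the Lin28 and let-7 timing pathway, 4 rose and 4 fell, with 2 rises on the deposited scale. Lin28a, which blocks let-7 processing, fell by 1.11 ± 0.24 (3224 and 3583 reads, then 1163 and 1596). Mycn had 1752 and 2109 reads and then 209 and 304 (-2.72 ± 0.35). Hmga2, a let-7 target, had 115 and 100 reads and then 714 and 1129 (3.27 ± 0.23).

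**Figure D5:**
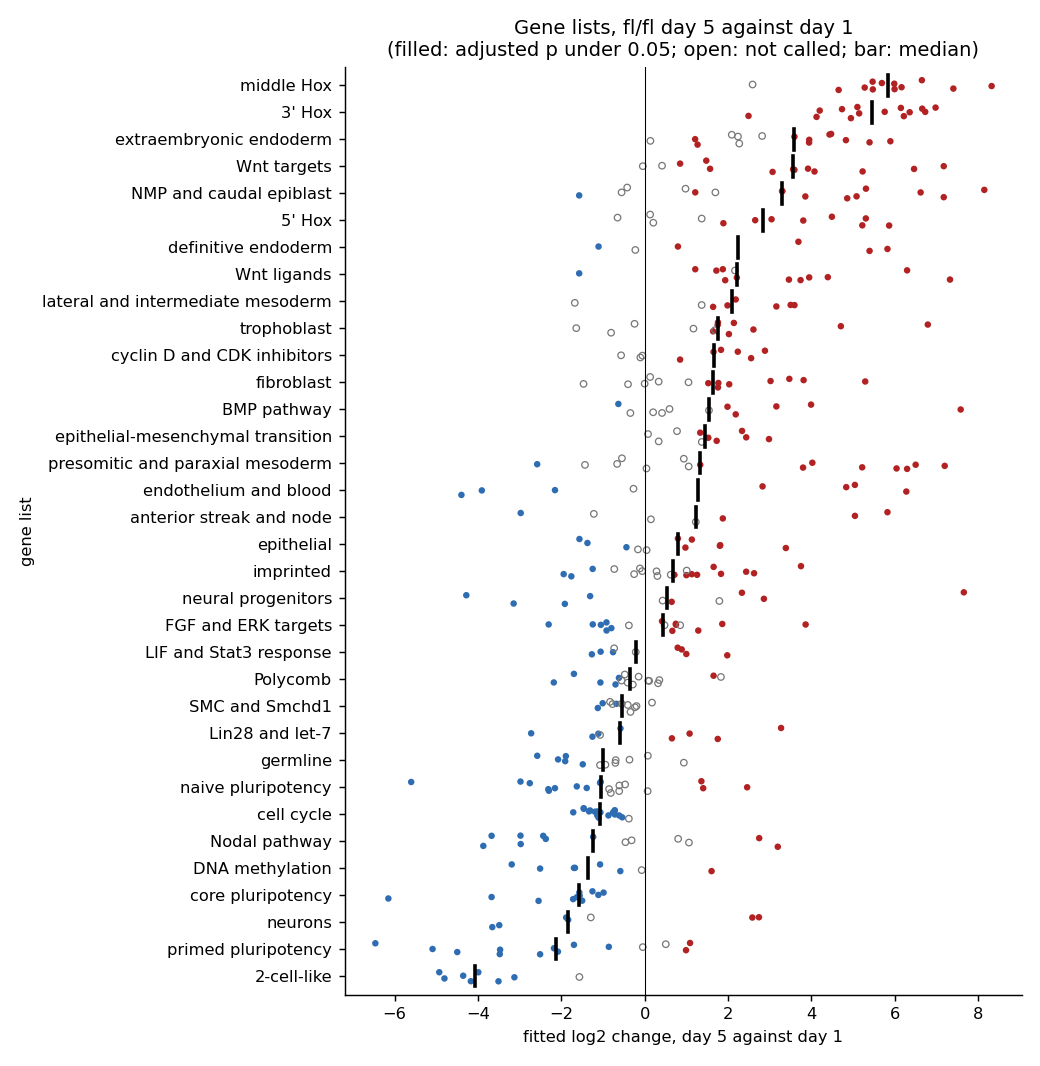
Fitted log2 change from day 1 to day 5 (horizontal axis) of every tested member of 34 gene lists (vertical axis, ordered by median). Filled points have an adjusted p under 0.05, red for higher and blue for lower at day 5, open points were not called and black bars are medians; the middle and 3′ Hox lists lie at the top and the 2-cell-like list at the bottom.

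Outside the lists, the largest changes of all genes with at least 30 reads in each library of the higher day included genes that were well read at day 1 and had few reads at day 5. Enpp3 (chr10:24773814-24836195), an ectonucleotidase, had 1721 and 1927 reads at day 1 and 16 and 15 at day 5 (-6.67 ± 0.49, adjusted p = 6.76e-06). Kirrel2, an immunoglobulin family adhesion gene, had 177 and 245 reads and then 0 and 3, a ratio of 127 (43.1 to 617). Foxi3, a forkhead factor, had 257 and 290 reads and then 0 and 9 (-6.37 ± 0.80). With Fgf4 and Fgf5, given above, the 12 largest falls also held Rbm44, Ankrd35, Slc5a11, Tnfsf11, Glyatl3 and Jakmip2. Ankrd35 had 4 and 13 reads left at day 5, and the other 5 had at most 5 reads in either library. Among the largest rises, Tgm2, a transglutaminase, had 6 and 9 reads and then 693 and 1773 (7.45 ± 0.71). Tmprss2, a membrane serine protease, had 3 and 7 reads and then 494 and 1040 (7.50 ± 0.62, adjusted p = 1.14e-05).

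The change in fl/fl cells was then tested against the change in the del/del cells of the same lines, which differ in Smchd1, transduction and selection together. For the difference of the changes, 0 of 14063 genes passed limma's adjusted threshold (0.00%), 358 had an unadjusted p under 0.05 and the smallest adjusted p was 0.962. The voom fit called 0, with 448 at an unadjusted p under 0.05. Both unadjusted counts are below the number that uniform p-values would give if no gene differed. Of the 3234 genes that rose in fl/fl, 3205 had a positive change in del/del, and of the 2513 that fell, 2494 had a negative one. Without the day 5 del/del library of line 1 the test of the difference called 261 genes, and without any of the other libraries of these groups it called 0. T changed by 7.45 in del/del against 8.15 in fl/fl, Cdx2 by 4.85 against 5.09, Axin2 by 3.62 against 4.08 and Fgf4 by -5.86 against -6.15 on the log2 scale. The gene with the smallest p of the difference was Ets1, a transcription factor, which had 13 and 15 reads and then 213 and 486 in fl/fl (4.74 ± 0.25) and changed by 2.83 in del/del (unadjusted p = 0.000227, adjusted p = 0.962). No change described here was thus shown to be particular to the fl/fl cells, and a missed threshold with 2 libraries a group does not show that the genotypes changed alike.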

How the data were processed

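Total RNA was sequenced on the Illumina platform. Per the labels, the deposited values are log2 reads per M reads (RPM), 1 column per library. The submitters' processing notes name bcl2fastq, TopHat2 2.0.12, edgeR and the mouse build mm10. The counting program, its strand setting and the treatment of duplicates are not given in the sources used here. Out of log2, the deposited values of each library were whole multiples of 1 step (100% of genes within 0.02 reads), and 0 reads had been entered as 0.9 reads, so reads per gene could be recovered. The reads in the 25965 genes of the table summed to 1.51 to 8.67 M per library, which is 10.1 to 27.8% of the denominators of 14.9 to 34.0 M. Intervals and the floor of 3 reads cover counting error only. Of 25899 distinct names, 24602 (95.0%) matched GENCODE M21, the source of coordinates and shared exons.

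For each library, log ratios to the mean of the libraries were taken gene by gene, and their median was subtracted. limma 3.58.1 (R 4.3.3) was fitted to the log2 values of all 12 libraries, with a mean for each of the 6 groups and the variance prior following mean level (6 residual and 4.85 prior degrees of freedom), on 14063 genes, those at more than 1 RPM as deposited (log2 over 0) in 2 or more libraries. P-values were adjusted by the Benjamini-Hochberg method over all of these genes. Tables and figures were made with Python 3.11.15. Fits were tested on simulated data. The 2 lines were derived separately, but each gave 1 library a day. The p-values rest on a spread between libraries that is pooled over all 6 groups. The standard deviation of the difference between the 2 libraries of a group was 0.463 at fl/fl day 1 and 0.568 at fl/fl day 5. Over the 6 groups it ranged from 0.440 (del/del day 1) to 0.903 (fl/fl day 8). The fl/fl libraries of a day differed beyond counting noise (chi-square per degree of freedom 2.72 at day 1 and 7.44 at day 5). The replicate number marks the same ES line at both days. The deviations of same-numbered libraries from their group means correlated at 0.0922 between the fl/fl days and from -0.154 to 0.240 over all pairs of groups. The fit without a block for the line is the main one.

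Genes were named by a rule: the 12 largest rises and the 12 largest falls among called genes whose days did not overlap and that had at least 30 reads in each library of the higher day, from each described list its members of smallest p (6 at most), any member of the NMP, pluripotency, Wnt target and Hox lists, Smchd1, and the 5 genes with the smallest p of the difference between genotypes. Of 46 gene lists (579 genes), 34 are described. Some genes that the rule names are not reported here. The members and the lists were chosen with earlier results of these data known. The alternatives were the deposited scale, TMM scaling, voom, a stricter and no filter, 3 reads added before the logarithm, a block for the ES line, the 4 libraries alone, removal of a trend over read density, and leaving out, 1 at a time, the 4 fl/fl libraries compared and the fl/fl day 8 library of line 3. For the difference between genotypes the del/del libraries of day 1 and day 5 were also left out in turn.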

Additional observations from a re-analysis of the deposited data

How the results depend on the processing

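The number of genes called between the fl/fl days was 5747 and depended on the scale and on the libraries. On the deposited scale 2657 genes were called (1221 higher, 1436 lower), so that 46.0% of the calls were rises, against 57.6% with TMM scaling. A fit on the 4 fl/fl libraries alone called 3813 lower genes, and voom called 3511 higher and 3115 lower. With 1 of the 4 compared libraries or the day 8 fl/fl library of line 3 left out, the total ranged from 3540 to 6787 and the lower genes from 1261 to 3141, with the highest values without the day 8 library, an alternative chosen after seeing the data; with any 1 of the 4 compared libraries left out, the lone library of its day is assumed to vary like the other groups. The difference between genotypes had 0 to 261 calls with 1 library left out. The median of the LIF and Stat3 list, -0.21, changed sign under the stricter filter (0.31) and ranged from -0.35 to 0.40 with 1 library left out. A block for the ES line, which pairs the libraries, gave 3129 higher and 2429 lower genes, and none of the 183 called genes that the text describes lost its call under that block. Of 2544 values of these genes over the alternatives, 2494 kept the call and 50 lost it, none changed direction, and 156 genes kept it under every alternative that could be fitted. The cause was not tested for any of these changes beyond the fewer libraries in a fit. The planned fits with edgeR and DESeq2 were not run, because the deposited unit is log2. Depth limits the genes with few reads at both days, such as Wnt3a and Elf5, and line 1 at day 5 has the fewest gene reads of the 4 libraries.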
